A study of Mus musculus with 10 samples.

Results

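The 9 genes described here build, store or recapture catecholamines, or encode the peptide released with them: Th, Dbh, Ddc, Slc6a2, Slc18a1, Slc18a2, Gch1, Pnmt and Npy. They were taken by gene symbol from an array study of mouse urogenital systems, where 20 of 45101 probe sets carry exactly these symbols, and they are 9 of the 18193 genes that could be named. RNA came from urogenital systems of embryos at embryonic day 15.5, in pools of 1 to 2 systems, and was labelled and hybridized to Affymetrix mouse genome arrays. There were 5 pools of embryos with the cneo allele on both copies of Wnt9b, called homozygous here, and 5 pools called control. For the controls the labels conflict: the genotype field reads Wnt9bcneo/+, 1 copy of cneo, and the titles say wild type. The design text of the series conflicts too, since it tells of dissected kidney mesenchyme from an earlier stage and of a null Wnt9b allele; tissue, stage and genotype are given here as the sample labels and the series title have them. Wnt9b encodes a secreted signal of the ureteric bud that starts nephron formation, and the labels do not state what cneo does to its transcript. Whole urogenital systems were taken, and the labels do not say how much ganglion, adrenal gland or other neighbouring tissue each pool held. The labels call the RNA pools distinct but do not name the embryos, so the spread behind each p-value is that between pools.

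Catecholamines are made from tyrosine in sympathetic neurons and in the chromaffin cells of the adrenal medulla, both of which derive from the neural crest. Th makes L-DOPA with a pterin cofactor that depends on Gch1, Ddc turns L-DOPA into dopamine, Dbh makes noradrenaline inside the vesicle, and Pnmt methylates noradrenaline to adrenaline in chromaffin cells. The vesicle carriers Slc18a1 and Slc18a2 load the amines, Slc6a2 takes noradrenaline back into the cell, and Npy is a peptide stored and released with noradrenaline by sympathetic neurons. Sympathetic fibres, small ganglia and the adrenal glands lie beside the kidney at this stage, and proximal tubule cells of the kidney also make Ddc.

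Over the brightest probe set of each gene, all 9 genes had a higher mean in homozygous pools, as did 50% of all genes. Of the 9, Slc6a2, Gch1 and Npy rose (limma, Benjamini-Hochberg adjusted p under 0.05 over 18193 genes), none fell and 6 did not pass, against 0.539% of all genes that rose. At an unadjusted p under 0.05 the count was 8 of 9, against 9.83% of all genes. In 5 of the 9 (Th, Dbh, Slc6a2, Gch1 and Npy) every homozygous pool lay above every control pool, which held for 2.61% of all genes. The median difference of the 9 was 2.44 on the log2 scale and that of all genes was 0. Lower amounts of these transcripts in a pool can mean fewer cells of a type or less RNA per cell, which bulk arrays cannot tell apart.

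The number of calls over the whole array, 176 in the full data, hinged on single pools, and the calls of the 9 genes went with it. Without homozygous pool 1, 3 or 5, or control pool 1, 3, 4 or 5, 0 of the 9 passed (limma; 7 or 8 of 9 at an unadjusted p under 0.05), where only 3 to 13 of all 18193 genes did. Without homozygous pool 2 or 4, Gch1 and Npy passed, among 250 and 67 of all genes, and without control pool 2, Dbh, Gch1, Npy and Slc6a2 passed, among 414. The differences themselves moved less: with 1 pool left out that of Npy ran from 2.62 to 3.03, that of Gch1 from 2.28 to 2.63 and that of Slc6a2 from 4.11 to 5.16.

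The pools differed in ways the genotype labels do not give. The actin control probe sets gave a 3' to middle ratio, which climbs as RNA degrades, of 97.7 for homozygous pool 5 and 94.8 for control pool 1, and of 9.87 to 33.1 for the other 8. On every array the 3' probe set thus read at least 9.87-fold above the middle one. Xist was high in homozygous pools 3, 4 and 5 (13.75 to 14.27 on the log2 scale, against 6.07 or below elsewhere), where the measured Y-linked genes were at or next to the floor. By these genes the 3 pools read as female and every other pool, all controls included, as male. The mean log2 level of the Y-linked genes was 9.75 to 10.31 in control pools. Sex was thus split unevenly between the genotypes. Intensities of 16 or less, the floor applied here, made up 19.9% to 21.1% of a homozygous array and 22.2% to 23.0% of a control array. The part of these differences in the results was not tested. Without the 2 arrays of high actin ratio the differences were 3.36 for Th, 3.04 for Dbh, 4.38 for Slc6a2, 2.22 for Gch1 and 2.54 for Npy, and without the 3 Xist-high pools 4.18, 3.22, 4.89, 2.47 and 2.83, though 0 of the 9 genes passed limma in either fit (7 and 8 of 9 at an unadjusted p under 0.05). Of all 18193 genes 23 and 28 passed in these fits, and 3533 and 1641 had an unadjusted p under 0.05.

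The stretch of 250 bases before the annotated start is shown for 4 of the 5 genes whose groups did not overlap, to show what lies ahead of genes that separated the genotypes; the sequences are from RefSeq on GRCm38.p6, written 5′ to 3′ on the gene's strand. The window of Th lies at chr7:142899996-142900245, strand -. That of Dbh is at chr2:27165257-27165506, strand +. That of Gch1 is at chr14:47189414-47189663, strand -. That of Npy is at chr6:49822460-49822709, strand +. Of the 9 genes 6 had an entry. Slc6a2, Slc18a1 and Pnmt did not. Capitals mark matches to 4 motifs searched on both strands.
Th: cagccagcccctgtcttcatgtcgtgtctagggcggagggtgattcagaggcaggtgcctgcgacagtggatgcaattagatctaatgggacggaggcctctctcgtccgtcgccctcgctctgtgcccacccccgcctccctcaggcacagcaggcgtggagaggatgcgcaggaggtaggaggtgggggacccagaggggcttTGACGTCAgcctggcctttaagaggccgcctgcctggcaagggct
Dbh: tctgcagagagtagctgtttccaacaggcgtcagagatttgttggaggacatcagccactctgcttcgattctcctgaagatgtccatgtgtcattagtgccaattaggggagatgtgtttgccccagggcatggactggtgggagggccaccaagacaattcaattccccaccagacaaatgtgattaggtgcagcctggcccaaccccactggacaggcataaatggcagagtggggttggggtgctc
Gch1: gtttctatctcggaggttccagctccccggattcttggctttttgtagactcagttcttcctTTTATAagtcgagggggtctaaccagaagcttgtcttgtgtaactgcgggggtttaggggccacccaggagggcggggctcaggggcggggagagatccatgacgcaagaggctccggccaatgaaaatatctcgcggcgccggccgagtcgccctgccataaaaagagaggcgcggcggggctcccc
Npy: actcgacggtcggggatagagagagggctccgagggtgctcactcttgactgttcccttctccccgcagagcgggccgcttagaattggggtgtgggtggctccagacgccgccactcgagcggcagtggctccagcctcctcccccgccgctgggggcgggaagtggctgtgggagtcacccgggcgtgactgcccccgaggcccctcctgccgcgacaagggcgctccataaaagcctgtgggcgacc
The motifs were TGACGTCA (the cAMP response element), TAAT and ATTA spaced by NNN (a paired homeodomain site), CAGCTG (an E-box) and TATAAA. In Th the cAMP response element begins 45 bases before the start, and 1.55% of 32851 promoters of this length hold this motif. Slc18a2 also has this element, beginning 4 bases before its start and reaching past it, so it does not lie wholly within the 250 bases. In Gch1 the capitals mark TATAAA read from the opposite strand, 188 bases before the start, a motif that 12.4% of promoters hold. The windows of Dbh and Npy matched none of the 4 motifs. The homeodomain motif was in 0.463% of all promoters and in none of the windows of the 6 genes, while CAGCTG, found in 13% of promoters, was present in Slc18a2. These matches describe letters in a window and were not tied to the expression values.

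Th, tyrosine hydroxylase, catalyses the rate-limiting step of catecholamine synthesis (chromosome 7, 142892779 to 142899995, GRCm38.p6). Its single probe set read 1888, 1116, 1699, 433 and 985 in homozygous pools 1 to 5, in the deposited linear intensity units. In control pools 1 to 5 it read 23.8, 225, 20.4, 79.5 and 386. The groups did not overlap, but the highest control, pool 5, came within 1.12-fold of the lowest homozygous pool, pool 4. The mean log2 level was 10.09 ± 0.84 (SD, n = 5) in homozygous and 6.33 ± 1.89 (SD, n = 5) in control pools, a difference of 3.76 ± 0.87 (SE) that did not pass (limma adjusted p = 0.0806). Control pools alone spanned 18.9-fold, and the SD among them was at percentile 98.9 of all genes.

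Dbh, dopamine beta-hydroxylase (chromosome 2, 27165507 to 27183204), has 3 probe sets, of which the brightest is of the x_at kind that may also bind related sequences. That probe set, 1459848_x_at, read 1873, 1090, 2332, 933 and 2032 in homozygous pools 1 to 5. In control pools 1 to 5 it read 86.5, 483, 34.3, 191 and 306. Every homozygous pool was higher than every control pool, with control pool 2 the highest of its group and pool 3 the lowest, as far apart as 14.1-fold. The log2 difference was 3.34 ± 0.69 (SE; limma adjusted p = 0.0602). The other 2 probe sets differed by less: 1447592_at by 2.49 ± 0.64 with no overlap, and 1450670_at by 1.89 ± 0.56, where homozygous pool 5 at 127 lay below control pools 2 and 5 at 129 and 159.

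Ddc, aromatic amino acid decarboxylase (chromosome 11, 11814101 to 11898144), is not limited to catecholamine cells. Its bright probe set read 4015, 2791, 4330, 1878 and 3549 in homozygous pools 1 to 5 and 478, 1569, 620, 2034 and 1131 in control pools 1 to 5. Control pool 4 lay above homozygous pool 4, so the groups overlapped. The log2 difference was 1.65 ± 0.42 (SE; limma adjusted p = 0.0991). A dim second probe set, 1430591_at, was between 44.3 and 103 in homozygous pools and under 16 on 4 of the 5 control arrays, with 22.7 in control pool 4. It passed in the fit over 45037 probe sets (1.91 ± 0.22, limma adjusted p = 0.0192), where the bright set did not (limma adjusted p = 0.150). Those 4 control arrays were set to the floor, so the change of the dim set is understated. The floor also made those 4 values equal, which narrowed the control SD to 0.23 and lowered the SE behind this call. With the mean of the probe sets in place of the brightest, Ddc passed as a gene too.

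Gch1, GTP cyclohydrolase, the enzyme that begins synthesis of the pterin cofactor (chromosome 14, 47153895 to 47189413), rose. The probe set 1429692_s_at read 503, 349, 532, 239 and 508 in homozygous pools 1 to 5. In control pools 1 to 5 it read 51.8, 95.3, 48.6, 92.2 and 110. The lowest homozygous pool was 2.18-fold above the highest control pool, and control pools spanned only 2.26-fold. The difference was 2.44 ± 0.32 on the log2 scale (SE; limma adjusted p = 0.0251), a 5.42-fold change. A second probe set, 1420499_at, differed by 1.89 ± 0.55 with no overlap; its lowest homozygous value was 129 in pool 5 and its highest control value 110, also in pool 5. With the mean of both probe sets Gch1 differed by 2.16 and fell just short of the threshold (limma adjusted p = 0.05005).

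Pnmt, the adrenaline-forming enzyme (chromosome 11, 98386623 to 98388180), differed least. Its brightest probe set read 65.1, 432, 473, 177 and 296 in homozygous pools 1 to 5 and 152, 114, 174, 131 and 266 in control pools 1 to 5. Homozygous pool 1 was below all 5 controls, while pools 2, 3 and 5 were above all of them. The log2 difference was 0.55 (95% interval -0.67 to 1.76; limma adjusted p = 0.669), so a sizeable change in either direction cannot be told from none with these pools. It was 1.01 without homozygous pool 1 and 0.07 without the 3 Xist-high pools. The 2 dimmer probe sets differed by 0.83 and 0.52, and neither passed.

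Slc6a2, the noradrenaline transporter (chromosome 8, 92960470 to 93001667), had rank 2 among the rises of all 18193 genes; Th had rank 12, Dbh rank 19, Npy rank 47 and Gch1 rank 83. Its bright probe set 1460129_at read 2634, 1503, 3977, 1009 and 795 in homozygous pools 1 to 5. In control pools 1 to 5 it read 1.35, 155, 21.0, 290 and 89.6. All homozygous pools were at least 2.74-fold above the highest control pool, and control pool 1 was under the floor. Its adjusted p in the fit over genes was 0.0489 (limma), close to the threshold, and 0.0772 in the fit over probe sets. The other 3 probe sets, none above 134 on any array, differed by 0.76 (1421641_at), 0.47 (1442449_at) and 0.28 (1447311_at), and all 3 overlapped between the groups. The mean over its 4 probe sets differed by 1.53 and passed.

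The vesicle carriers differed less. Slc18a1, the carrier best known from chromaffin and other endocrine cells (chromosome 8, 69037708 to 69089238), read 546, 462, 570, 235 and 523 in homozygous pools 1 to 5 and 292, 290, 367, 160 and 136 in control pools 1 to 5. Homozygous pool 4 fell inside the control range, and the other 4 lay above it. The difference was 0.94 ± 0.35 (SE; limma adjusted p = 0.228), and 0.45 with the mean of its 3 probe sets, of which 1458777_at was under the floor on every array. In the controls its highest values were in pools 3 and 1 (pool 2 was next at 290), the pools lowest in Th, Dbh, Slc6a2 and Gch1.

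Slc18a2, the carrier of monoamine neurons (chromosome 19, 59260878 to 59296012), read 297, 88.5, 89.2, 48.2 and 36.9 in homozygous pools 1 to 5. In control pools 1 to 5 it read 33.2, 30.2, 27.2, 36.2 and 39.2. The controls spanned 1.44-fold, the narrowest of the 9 genes, though at values near the floor. Homozygous pool 5 lay among them, while homozygous pool 1 stood above every other pool. The difference was 1.35 ± 0.50 (SE; limma adjusted p = 0.229). Without homozygous pool 1 it was 0.89, and without the 3 Xist-high pools 2.30.

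Npy (chromosome 6, 49822710 to 49829507) rose with the lowest adjusted p of the 9. Its only probe set read 6243, 3473, 5781, 2334 and 6394 in homozygous pools 1 to 5. In control pools 1 to 5 it read 464, 893, 820, 409 and 850. The groups were 2.61-fold apart at their nearest, and the controls spanned 2.18-fold. The mean log2 level was 12.14 ± 0.64 (SD, n = 5) against 9.35 ± 0.54 (SD, n = 5), a difference of 2.79 ± 0.35 (SE; limma adjusted p = 0.0222). Unlike Th and Dbh, Npy was not lowest in control pools 1 and 3: its lowest control was pool 4.

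**Figure D1:**
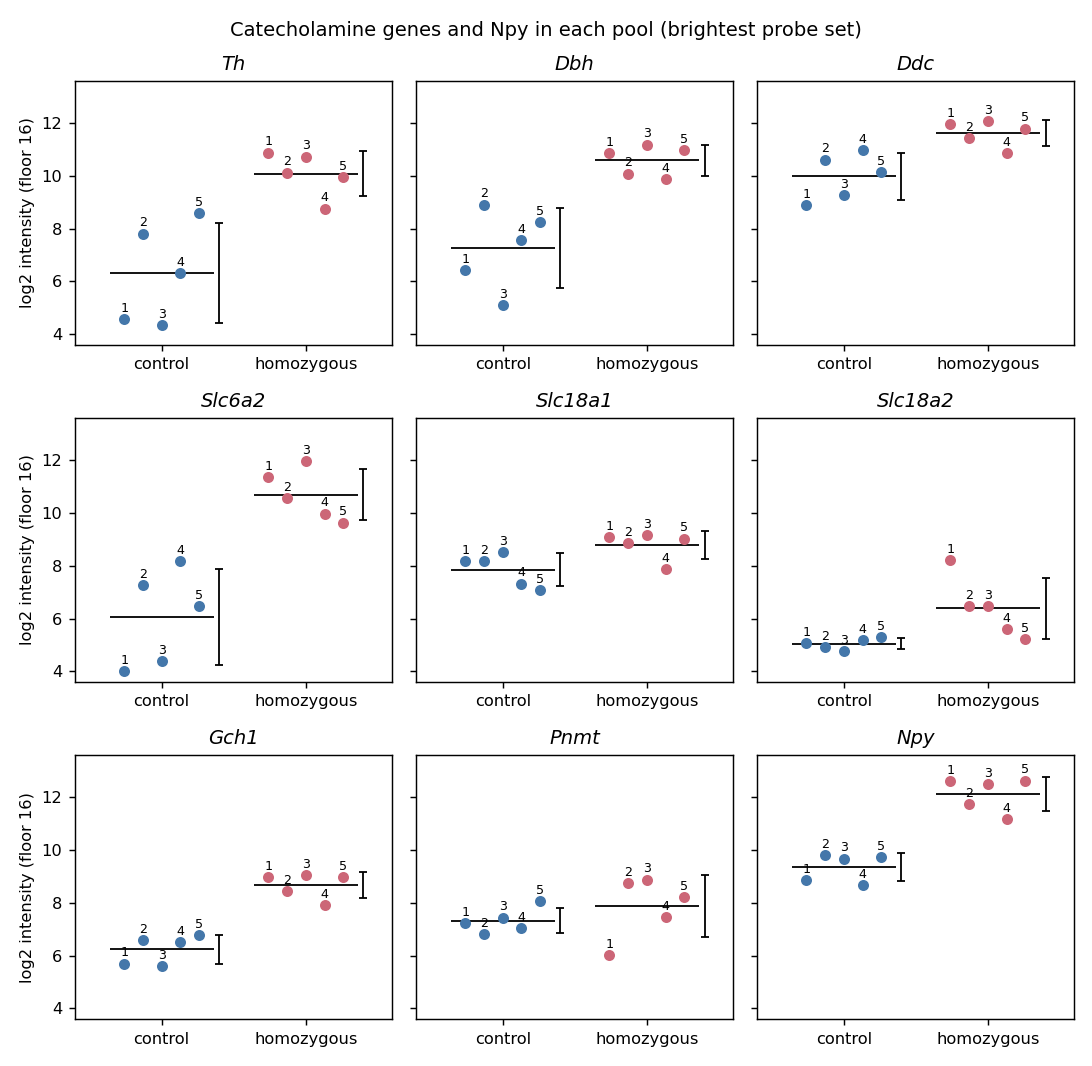
Log2 intensity (floor 16) of the brightest probe set of each gene in the 5 control and 5 homozygous pools; points are pools with their replicate number, lines are group means and bars are 1 SD. Th, Dbh, Slc6a2, Gch1 and Npy do not overlap between the groups, and the control pools of Th, Dbh and Slc6a2 are spread more widely than their homozygous pools.

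The 9 genes divided by the spread of the controls. The SD of log2 values among control pools was 1.89 for Th, 1.82 for Slc6a2 and 1.51 for Dbh, all above percentile 98 of all genes, and 0.88 for Ddc. It was between 0.47 and 0.62 for Slc18a1, Gch1, Npy and Pnmt and 0.21 for Slc18a2, whose value was at percentile 33.1. The control intensities of Slc18a2 lay near the floor. The median over the 9 genes was 0.62 in controls and 0.64 in homozygous pools, and over all genes 0.29 and 0.34. Control pools 1 and 3 were the lowest for Th, Dbh, Ddc, Slc6a2 and Gch1. Among homozygous pools, pool 4 was the lowest for Th, Dbh, Ddc, Slc18a1, Gch1 and Npy, while pool 5 was the lowest for Slc6a2 and Slc18a2. The exact two-sided permutation test of the single gene gave 0.00794, the smallest that 5 against 5 pools can give, for the 5 genes without overlap. It gave 0.0159 for Ddc and Slc18a2, 0.0317 for Slc18a1 and 0.357 for Pnmt; these exact p-values are unadjusted.

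In the fit over all probe sets, 3 of the 20 rose (the dim set of Ddc, 1429692_s_at of Gch1 and the set of Npy; limma), against 0.111% of 45037 probe sets. A higher mean in homozygous pools was found for 19, against 48.9% of all probe sets, and the set of Slc18a1 under the floor on every array gave no difference. Of the 20, 16 were higher at an unadjusted p under 0.05, against 7.38% of all probe sets, and 8 had no overlap, against 1.78%. Probe sets of 1 gene share its transcripts and are not independent of each other.

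**Figure D2:**
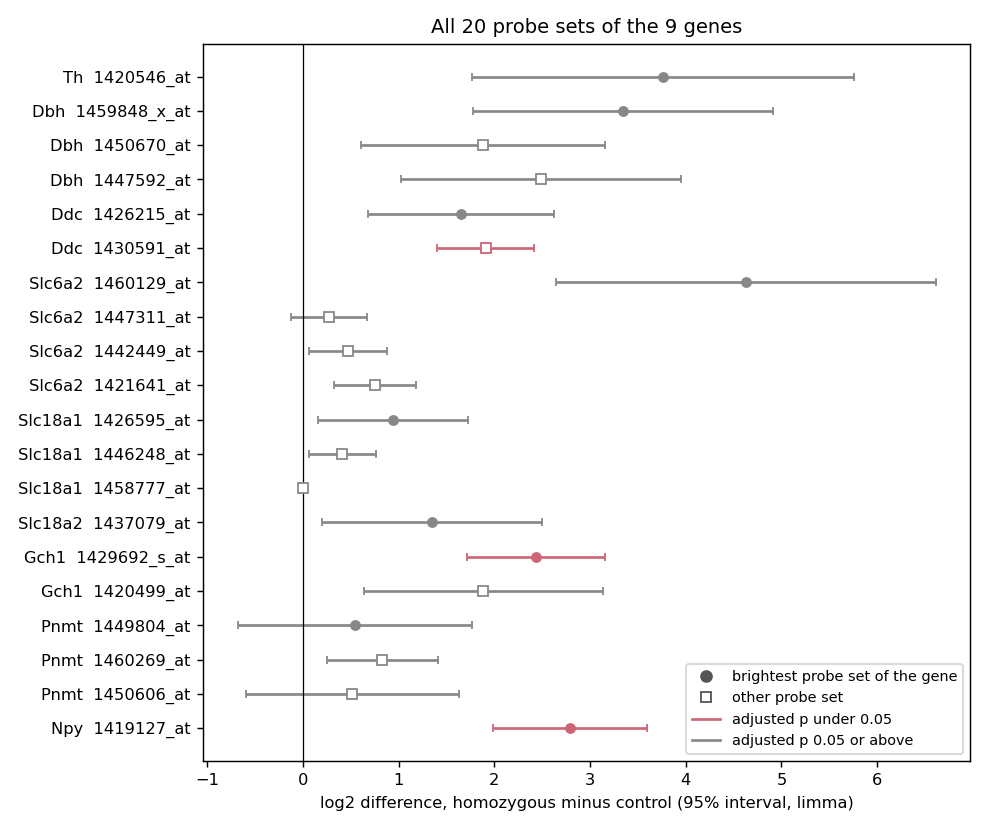
Log2 difference, homozygous minus control, of all 20 probe sets with 95% intervals from limma; filled circles are the brightest set of each gene and open squares the others, in red where the adjusted p over all probe sets was under 0.05. No difference is below 0, and the dim sets of Slc6a2 and Slc18a1 lie closer to 0 than their bright sets.

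To ask whether the genes changed by the same amount, each was set against Dbh within every pool. Relative to Dbh, 3 of 8 genes changed less by exact two-sided permutation tests adjusted over the 8 comparisons: Ddc by -1.69 (adjusted p = 0.0317), Slc18a1 by -2.40 (adjusted p = 0.0317) and Pnmt by -2.80 (adjusted p = 0.0423). The remaining 5 did not pass by the same exact tests: Slc6a2 differed from Dbh by 1.29 (adjusted p = 0.127), Th by 0.42 (0.435), Npy by -0.55 (0.563), Gch1 by -0.91 (0.127) and Slc18a2 by -1.99 (0.111). Within the homozygous pools the levels of Gch1, Npy and Ddc kept nearly the same distance from Dbh, with SDs of 0.18, 0.21 and 0.21 on the log2 scale (n = 5). Within the control pools the SDs of the same distances were 1.04, 1.51 and 1.05. The SD of Dbh itself was 1.51 in control and 0.58 in homozygous pools. Pearson r with Dbh over the 5 control pools was 0.91 for Gch1, 0.19 for Npy and 0.74 for Ddc. Over the 5 homozygous pools r was 0.96, 0.95 and 0.94. The calls relative to Dbh rest on the x_at probe set of Dbh. With either of its other probe sets 0 of 8 passed, the relative change of Ddc was -0.84 or -0.24, that of Slc18a1 -1.54 or -0.94 and that of Pnmt -1.94 or -1.34. None passed either without any 1 of the homozygous pools, and without control pool 2 the count was 5.

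**Figure D3:**
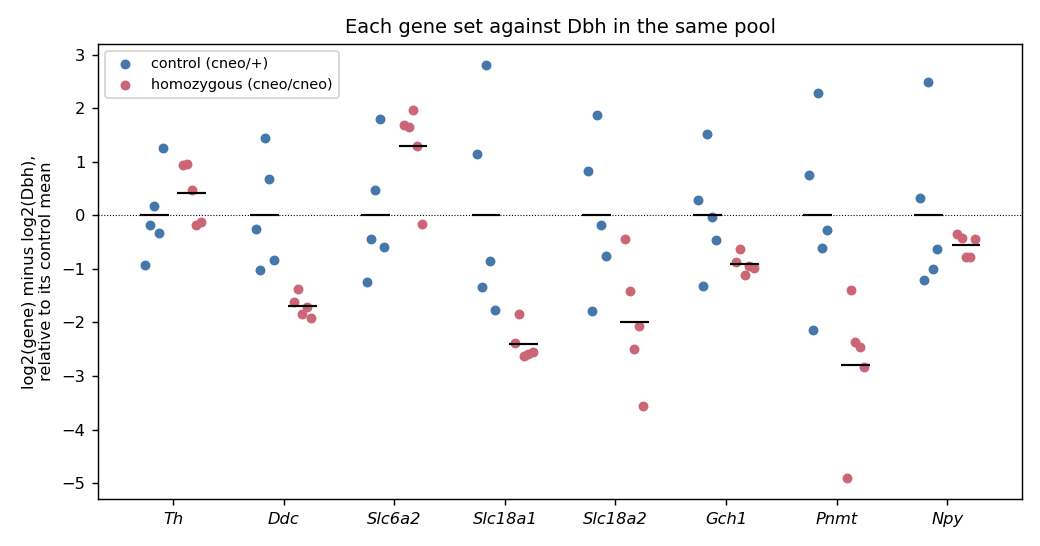
Log2 intensity of each gene minus that of Dbh in the same pool, set to a control mean of 0 for each gene; points are the 5 pools of each genotype and lines are means. The homozygous pools of Ddc, Slc18a1 and Pnmt lie 1.69, 2.40 and 2.80 below the control mean, and the controls have the larger SD for all 8 genes.

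Few other genes of the pathway passed the test. Of 6 measured genes of pterin cofactor synthesis and recycling, 1 fell and 0 rose (limma; 0 higher and 1 lower at an unadjusted p under 0.05), with a median of -0.16. The gene that fell was Pcbd1 (-0.63 ± 0.11, limma adjusted p = 0.0453; 2436 to 2953 in homozygous and 3291 to 4914 in control pools), a dehydratase of the cofactor cycle that also serves as a partner of the HNF1 transcription factors. Pcbd2 differed by 0.28. The background for falls was 0.429% of all genes. Among 7 measured genes of catecholamine breakdown and uptake, 0 passed (limma; 2 higher and 1 lower unadjusted), with a median of 0.23. Maoa, which oxidizes the amines, differed by 0.72 (adjusted p = 0.0647), and the organic cation carrier Slc22a2 by -1.40 (adjusted p = 0.0707) with no overlap.

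Of 9 measured genes that process Npy or encode its receptors, 1 fell and 0 rose (limma; 2 higher and 1 lower unadjusted), with a median of 0.59. Dpp4, a peptidase that trims Npy and is also a brush border enzyme of the proximal tubule, fell by 1.09 on the log2 scale (SE 0.18; limma adjusted p = 0.0374). The receptor gene Npy6r differed by 0.74 at intensities under 48. None of 6 measured adrenergic and dopamine receptor genes passed (limma; 0 unadjusted), with a median of 0.05 and Adra2c and Drd1 at 0.62 and 0.23. Of 14 genes for other transmitters 0 passed (limma; 2 higher and 1 lower unadjusted), with a median of 0.19. The histamine enzyme gene Hdc differed by -0.99 (adjusted p = 0.0558) and the GABA enzyme gene Gad2 by 0.46. The 6 vesicle partners of Dbh were all higher in homozygous pools, as were 50% of all genes, with a median of 2.97. In limma 0 passed, against 0.539% of all genes that rose. At an unadjusted p under 0.05 all 6 were higher, against 9.83% of all genes. The groups overlapped for each of the 6. Chgb differed by 4.25, Scg2 by 3.56, Scg3 by 3.17 and Chga by 2.77. Cyb561, which hands electrons to Dbh across the vesicle membrane, differed by 1.42 (adjusted p = 0.0753), as did the granule gene Scg5 (adjusted p = 0.0928).

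The genes most like Dbh over all 10 pools, among 10914 others with a mean log2 of at least 7, were Acot11 (Pearson r = 0.989), A930009L07Rik (0.983), Ccser2 (0.975), Phox2a (0.970) and Hand1 (0.969). Without control pools 1 and 3, the farthest from the median of Dbh, r was 0.974, 0.994, 0.942, 0.947 and 0.928. Acot11, a thioesterase gene, put the 10 pools in the same order as Dbh (Spearman rho = 1), but over a narrower range, 176 to 286 in control and 292 to 400 in homozygous pools. Phox2a and Hand1 are transcription factors of noradrenergic cells. The mean of at least 7 was taken over all 10 pools. In control pools alone A930009L07Rik (6.41), Phox2a (6.11) and Hand1 (6.01) had lower means, so they passed through their homozygous levels. Dbh was also higher in homozygous pools, so the filter itself favoured such genes in this ranking. Once each genotype's mean was taken off, the nearest were Acot11 (0.970), A930009L07Rik (0.960), Ccser2 (0.939), Sox10 (0.893) and Hand1 (0.891). Without control pools 2 and 3, then the farthest, r was 0.968, 0.930, 0.815, 0.772 and 0.674. All were read on the same arrays, were chosen as the highest of many, and describe likeness alone.

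Lists of markers were read for the cells that make or surround catecholamine cells, and none of their genes passed the test. Of 8 measured sympathoadrenal markers 6 were higher in homozygous pools and 0 passed (limma). At an unadjusted p under 0.05, 6 were higher, against 9.83% of all genes. The summed intensity of the 8 markers ran from 7313 to 16269 in homozygous and from 3588 to 10084 in control pools. In control pools Gata2 read 1357 to 2335, Gata3 403 to 1077 and Tfap2b 656 to 1589, much of the lower control sums. None of the 8 was at the floor on all arrays, but Isl1 and Hand1 fell to 3.44 and 6.26 in their lowest control pools. Phox2a differed by 3.07 (limma adjusted p = 0.0558) and Hand1 by 3.12 (limma adjusted p = 0.0687), each without overlap. Hand2 had the largest difference of the list, 4.04 (limma adjusted p = 0.0991), also without overlap. Gata3 and Tfap2b, which the kidney also makes, differed by -0.60 and -0.35. Schwann and satellite glia markers were higher in 4 of 5 (0 passed limma; 2 unadjusted), with sums of 2588 to 5148 against 1316 to 4135, and Fabp7 and Foxd3 differed by 2.09 and 0.98. Sensory neuron markers were higher in 5 of 6 (0 passed limma; 2 unadjusted), with sums of 1105 to 1978 against 595 to 1239, and Ntrk3 and Ntrk2 differed by 1.02 and 0.61. The part of these cells in the results was not tested.

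Tissues next to the kidney also varied. All 9 adrenal cortex markers were higher in homozygous pools (0 passed limma; 1 unadjusted), with sums of 5492 to 45404 against 921 to 25336, and Nr0b1 and Hsd3b1 differed by 1.49 and 4.08. All 5 skeletal muscle markers were higher too (0 passed limma; 0 unadjusted), with sums of 3089 to 20374 against 170 to 22699, and Acta1 and Myh3 differed by 3.13 and 3.00. Muscle sums were lowest in control pools 1 and 3, at 192 and 170, the same pools that were lowest for Th and Dbh, and adrenal cortex sums were lowest in control pools 1 and 2, at 1118 and 921. Control pool 4 had the highest muscle sum of all, 22699, beside a Th intensity of 79.5. The homozygous pools followed the same order for Pnmt and for the adrenal cortex sum: pool 1 was the lowest (65.1 and 5492), then pools 4 (177 and 7657), 5 (296 and 23008), 2 (432 and 41636) and 3 (473 and 45404). That pair was picked after its values were seen. By the mean log2 of the adrenal cortex list, homozygous pool 2 (11.25) lay above pool 3 (11.06), so the order held for the sum only. It also did not hold in the controls: in pools 1 and 4 Pnmt read 152 and 131, and the sum was 1118 and 7015. The share of the adrenal cortex or of muscle in the results was not tested.

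Markers of the proximal tubule, the reabsorbing segment of the nephron, were lower in homozygous pools. Of 9 proximal tubule markers 4 fell and 0 rose (limma), 8 were lower at an unadjusted p under 0.05, against 5.89% of all genes, and 6 had no overlap, against 2.1%. The median was -1.26. Their summed intensity was 2597 to 4063 in homozygous and 6297 to 9702 in control pools. Hnf4a (-1.51), Cubn (-1.45), Slc34a1 (-1.17) and Lrp2 (-1.73) fell. Ddc, which tubule cells also make, had a higher mean in homozygous pools, but its groups overlapped and it did not pass (limma adjusted p = 0.0991). The part of tubule cells in the level of Ddc was not tested. Of 6 nephron progenitor markers 0 passed (limma; 2 lower unadjusted), with sums of 5004 to 7020 against 5855 to 12349 and Crym and Six2 at -0.86 and -0.91. Of 6 ureteric and collecting duct markers 0 passed (limma; 3 lower unadjusted), with Calb1 and Aqp2 at -1.15 and -0.94 and Hoxb7 under 28 on every array. Gonad markers had a median of 0.18 over 5 genes (0 passed limma, 1 lower unadjusted), with Sox9 and Foxl2 at -0.72 and 0.54. Their sums varied within both genotypes. They were 1649 and 2266 in homozygous pools 1 and 2 and 1728 and 1928 in control pools 3 and 5, against 617 or less elsewhere. The 6 calls in these lists (Pcbd1, Dpp4 and 4 tubule genes) followed the same counts over all genes: 0 passed limma without homozygous pool 1, 3 or 5, without control pool 1, 3, 4 or 5, without the 2 arrays of high actin ratio, or without the Xist-high pools, fits in which 3 to 28 of all genes passed, and 17 list genes passed without control pool 2.

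**Figure D4:**
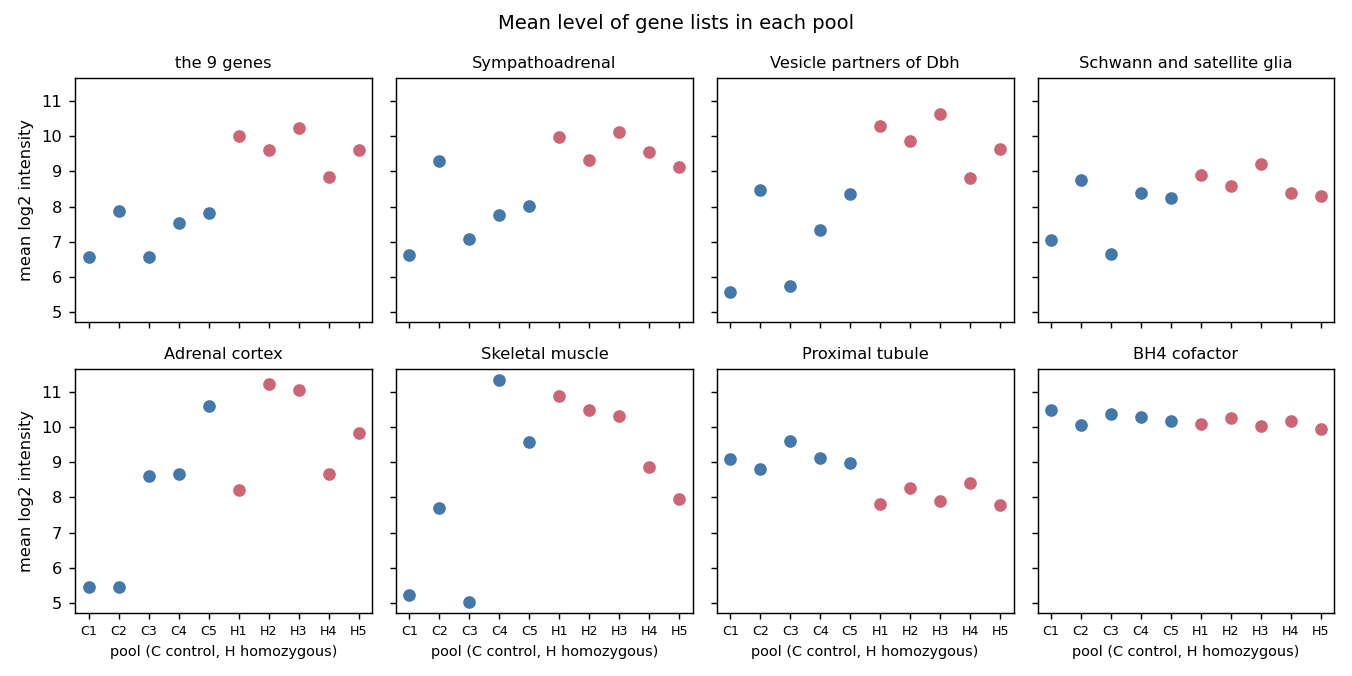
Mean log2 intensity of 8 gene lists in each of the 10 pools; each point is 1 pool, control pools (C1 to C5) in blue and homozygous pools (H1 to H5) in red. The 9 genes and the vesicle partners of Dbh are lowest in control pools 1 and 3, the adrenal cortex and skeletal muscle lists overlap between the genotypes, and the proximal tubule list is lower in every homozygous pool.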

How the data were processed

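Urogenital systems from 5 homozygous and 5 control pools were profiled on Affymetrix arrays. The authors deposited 1 linear intensity per probe set and array, scaled so that the mean without the highest and lowest 2% of values was 500 on every array. How probe sets were summarized, and with which software, is not given in the sources used here. The array number limits precision. For this work intensities under 16 were set to 16 and taken to log2; 64 control probe sets were left out. Names came from the platform annotation: 34945 probe sets had 1 symbol, 932 several and 9160 none; list genes with no such probe set were not used here. A gene is its probe set of highest mean, since levels of different probe sets are not comparable. The test across genes was that of limma 3.58.1 under R 4.3.3 (moderated by a trend on intensity, two-sided, Benjamini-Hochberg over all features), tested on simulated data, and single genes by exact permutation. Members and lists were chosen with earlier results of these data known. List genes named are those past the threshold, up to 5, or the 2 of smallest p where fewer than 2 passed. Coordinates are GRCm38.p6. Alternatives concerned probe sets, filters, scaling, floor, block, variance model, covariates and pools; other probe sets of Dbh were added after seeing the data.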

Additional observations from a re-analysis of the deposited data

Results flagged for a closer look

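In 5 of 40 groups of 5 pools (20 probe sets, 2 genotypes) 1 pool lay apart from the others by a gap that was a large share of the group's whole range. Independent normal values would pass the cut used in about 1 in 20 groups. The groups here share genes and pools, and 2 of the 5 gaps arose with the other 4 arrays at the floor. The count of 5 can thus not be set against that rate. Homozygous pool 4 was far below the others in 1447592_at of Dbh (gap 0.748 of the range; 174, against 312 to 380) and in 1426595_at of Slc18a1 (0.762; 235, against 462 to 570). Control pool 1 was far below the others in 1420499_at of Gch1 (0.777; 15.6, set to the floor). Control pool 4 was the only control above the floor in 1430591_at of Ddc (a gap of 1, at 22.7), and control pool 5 in 1450606_at of Pnmt (a gap of 1, at 35.8); with the other 4 at the floor, these gaps carry no size.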

How the results depend on the processing

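All 9 genes kept a higher mean in homozygous pools under every alternative in which they were tested, but counts of calls moved. Of all genes 176 passed; the count was 109 with the mean of probe sets, 283 and 108 with the dimmest 40% and 60% of genes left out, 95 with a floor of 32, 299 with 16 added and no floor, 951 with array weights, 489 and 13 with the actin ratio or the Y-linked level as a covariate, 23 when the 2 arrays of high actin ratio were dropped, 28 when the Xist-high pools were, and 3 to 414 with 1 pool left out. Of the 9 genes 3 passed. The count was 5 with the dimmest 40% left out, with median centring and with 16 added. It was 0 with the Y-linked covariate, without the 2 actin arrays and without the Xist-high pools, and 0 to 4 with 1 pool left out. Of the 20 probe sets 3 passed, against 5 with median centring or the actin covariate, 6 with 16 added, 1 without the Xist-high pools, 0 without the 2 actin arrays or with the Y-linked covariate, and 0 to 3 with 1 pool left out. In the other lists 6 genes passed, against 13 with the dimmest 40% left out or 16 added, 19 with array weights, 10 with the actin covariate, 0 with the Y-linked covariate or without either set of pools, and 0 to 17 with 1 pool left out. Relative to Dbh 3 genes differed, against 0 with the mean of probe sets, with either other probe set of Dbh and without either set of pools, and 0 to 5 with 1 pool left out; with 4 against 4 pools no exact p can go below 0.0286, and with 2 against 5 none below 0.0476. The sign against Dbh turned for Slc6a2 (-1.04) and Npy (0.22) with the mean of probe sets, for Npy without control pool 3 (from -0.85 to 0.068 over the fits that left out 1 pool), for Gch1 (0.55) and Npy (0.90) with 1450670_at and for Npy (0.30) with 1447592_at. The replicate numbers of the titles did not pair the pools: same-numbered pools had correlations of -0.55 to -0.17, and 0 of 5 correlated best with its own number. With the number as a block, 1 gene of all passed, and 0 of the 9, 0 of the 20 probe sets and 0 of the other lists. The cause of these shifts was not tested. The brightest probe sets of Slc18a1 and Pnmt were above the floor on every array. Dim probe sets, near the floor on many arrays, limit what can be read from the receptor genes and from the other sets of Slc18a1 and Pnmt. The same limit holds for Slc18a2, whose only probe set read 27.2 to 39.2 in control pools.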
